A study of Oryza sativa with 10 samples.

Results

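The genes described here are the alcohol dehydrogenases and pyruvate decarboxylases of rice (Oryza sativa), 5 loci named by identifier as ADH1 (Os11g0210300), ADH2 (Os11g0210500), PDC1 (Os05g0469600), PDC2 (Os03g0293100) and PDC3 (Os07g0693100). They were chosen by these identifiers, not by measured values, from 37727 loci, and all 5 were found in the count tables of both tissues. The tables go against 1 of these names. They describe Os03g0293100 as a conserved hypothetical protein with no symbol, and they give the symbol PDC2 to Os03g0293500, a neighbouring identifier described as similar to pyruvate decarboxylase isozyme 2. Os03g0293100 is therefore called by its identifier here, and Os03g0293500 is described beside the 5 listed loci as the PDC2 locus.

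Pyruvate decarboxylase splits pyruvate into acetaldehyde and carbon dioxide, and alcohol dehydrogenase reduces acetaldehyde to ethanol while it regenerates the NAD+ that glycolysis needs. Together they form the ethanol branch of fermentation, which plant cells use when oxygen limits respiration. Both enzymes are known from flooded rice, and from the starchy interior of cereal grains, which is dense and poor in oxygen while it fills.

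The samples were wild-type (WT) plants of the cultivar Nijinokirameki grown in paddy fields, with endosperm and flag leaf taken 5 days after flowering. The green manure (GM) plants drew on hairy vetch, a legume grown in the paddy and turned into its soil, and got no mineral fertilizer. The chemical fertilizer (CF) plants got a basal dressing with 56 kg/ha of N, 176 kg/ha of PO4 and 56 kg/ha of K. Poly(A) RNA was sequenced from 2 GM and 2 CF libraries of endosperm and from 3 GM and 3 CF libraries of flag leaf. Each endosperm replicate pooled spikelets from 1 plant, with the embryo removed from the frozen grain. How many plants the leaf replicates represent, and how many plots each regime had, is not stated in the labels, so the p-values measure only the spread between these libraries.

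Reads counted on genes ranged between 18656783 and 20771235 per library in endosperm GM, between 12200510 and 19173953 in endosperm CF, between 12500336 and 15933394 in flag leaf GM, and between 18540688 and 25827356 in flag leaf CF. Levels are CPM, the counts of a gene per 1000000 counts of its library, after scaling by the trimmed mean of M values (TMM). They are compared between libraries for a given gene. The tables give no gene lengths, so a ranking of genes by CPM, used only to choose which pathway loci to name, is not a ranking per length. All 7 starchy endosperm markers were called higher in endosperm than in leaf under both regimes, and of 5 green tissue markers 4 were called lower and 1 higher. Only 4 of the 7 passed the filter on low counts in leaf alone, so the direction of the others was not open. Over all genes tested, 44.6% were called higher and 37.7% lower under GM, and 45.0% higher and 38.1% lower under CF. In tissue extracts of this kind, fewer cells of a type and less RNA per cell cannot be told apart.

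ADH1 encodes the main alcohol dehydrogenase of anoxic rice seedlings. It stood at 251 and 256 CPM in GM endosperm, against 301 and 270 CPM in CF endosperm. In the flag leaf it stood at 18.1, 19.0 and 19.7 CPM under GM, against 18.0, 22.8 and 21.1 CPM under CF. Every endosperm library was far above every leaf library. Within endosperm both GM libraries lay below both CF libraries, and within the leaf the regimes overlapped.

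ADH2, a second alcohol dehydrogenase whose identifier lies close to that of ADH1 on chromosome 11, stood at 23.7 and 32.7 CPM in GM endosperm, against 38.1 and 37.3 CPM in CF endosperm. In the flag leaf its reads numbered 9, 6 and 5 in the GM libraries, against 8, 7 and 20 in the CF libraries. These correspond to 0.787, 0.508 and 0.354 CPM under GM and to 0.445, 0.418 and 0.842 CPM under CF. Both GM endosperm libraries were below both CF endosperm libraries, the first GM library being the lowest. The leaf libraries overlapped between regimes and were near the limit of what these depths resolve.

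The PDC2 locus, Os03g0293500, held most of the reads of the pyruvate decarboxylase loci. It stood at 245 and 253 CPM in GM endosperm, against 311 and 243 CPM in CF endosperm. In the flag leaf it stood at 38.6, 47.8 and 51.8 CPM under GM, against 47.2, 45.1 and 44.3 CPM under CF. The regimes overlapped in both tissues, and every endosperm library was above every leaf library. Counted as reads and not per length, it held 93.4% of those over all pyruvate decarboxylase loci in GM endosperm and 93.5% in CF endosperm, but 77.8% in GM leaf and 78.1% in CF leaf.

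Os03g0293100, the listed locus with no enzyme annotation, had the opposite distribution between tissues. It stood at 8.85 and 6.64 CPM in GM endosperm, against 12.6 and 8.22 CPM in CF endosperm. In the flag leaf it stood at 357, 311 and 389 CPM under GM, against 346, 389 and 350 CPM under CF. The regimes overlapped in both tissues, and the lowest leaf library was above the highest endosperm library.

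**Figure D1:**
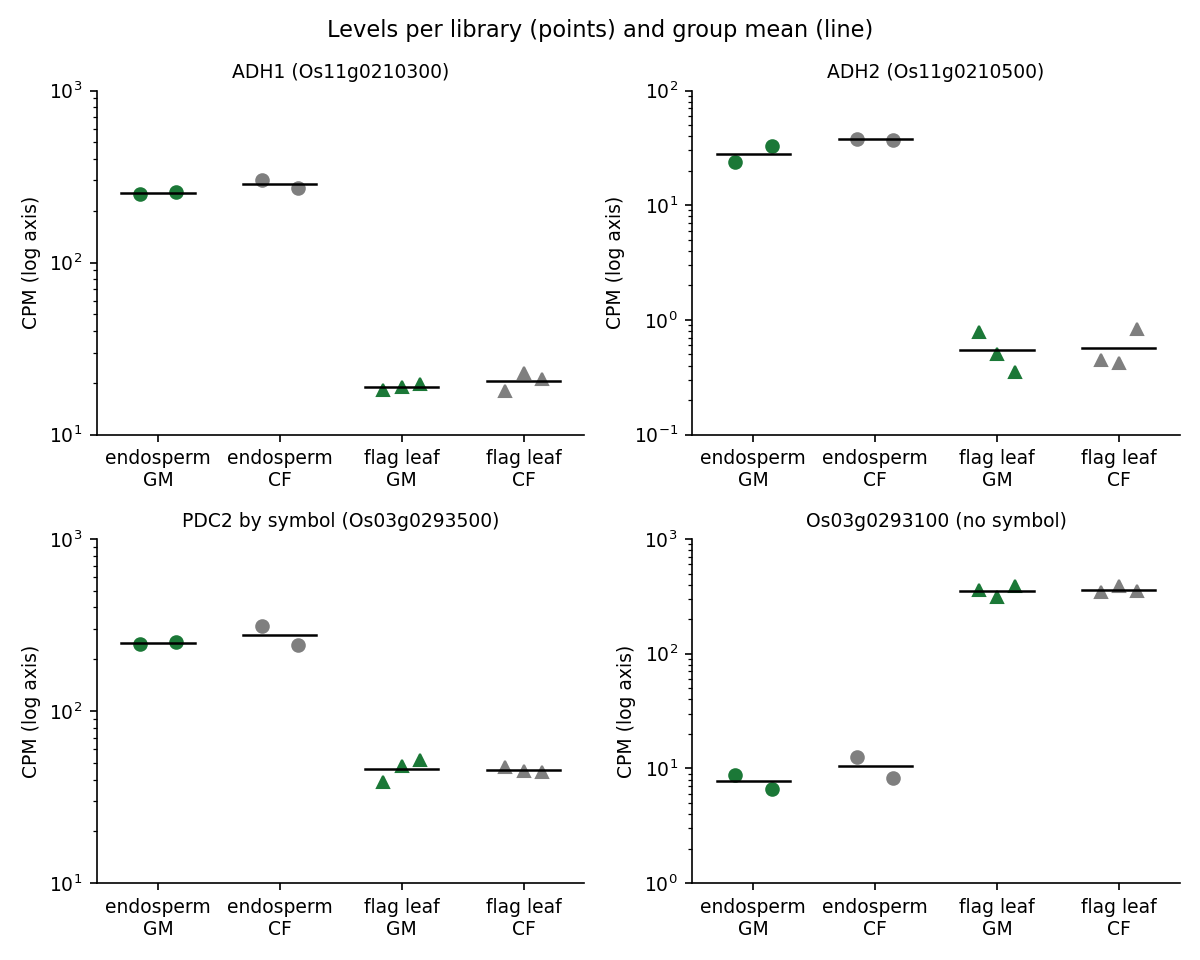
Level of ADH1, ADH2, the PDC2 locus Os03g0293500 and Os03g0293100 in each library (points, CPM on a log axis that differs between panels) by tissue and regime, with group means as lines. ADH1, ADH2 and Os03g0293500 are higher in all 4 endosperm libraries than in all 6 leaf libraries, and Os03g0293100 is lower.

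PDC1 and PDC3, which carry the pyruvate decarboxylase names 1 and 3 in the tables, were close to undetected. PDC1 had 3 and 14 reads in the GM endosperm libraries, against 3 and 4 in the CF endosperm libraries. It had no read in any GM leaf library and a single read in the CF leaf libraries. Thus 14 of the 17 PDC1 reads in GM endosperm came from 1 library. Summed over libraries, PDC1 had 0.431 CPM before scaling in GM endosperm, with an exact 95% Poisson interval of 0.251 to 0.690, and 0.223 in CF endosperm, with an interval of 0.0897 to 0.460. These intervals cover counting error only, and they overlap. In GM leaf, 0 reads allow a level of up to 0.0725 CPM before scaling, taking 3 reads over the group as the limit of a zero count. Under CF the ratio of endosperm to leaf, also before scaling, was 14.4, with a counting interval of 1.85 to 650.

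PDC3 had 2 and 0 reads in the GM endosperm libraries, against 1 and 1 in the CF endosperm libraries. In the leaf it had 0, 1 and 1 reads under GM, against 0, 0 and 2 under CF. The sum was 2 reads in each of the 4 groups, and no difference was detectable at this depth. Neither PDC1 nor PDC3 passed the filter on low counts in any comparison. With no filter, edgeR called PDC1 higher in endosperm under GM (adjusted p = 0.00368) and under CF (adjusted p = 0.0478), and PDC3 in neither. In that setting 21598 genes under GM and 21854 under CF were called of 32577 tested, so a call alone says little about PDC1.

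A pair of neighbours of the listed loci was singled out after the values were seen. Adh3 (Os11g0210600) follows ADH2 in identifier order, and the tables also list OsADH2 among its synonyms. Its reads summed to 0 in GM endosperm and 1 in CF endosperm, against 171 in GM leaf and 241 in CF leaf. Under GM, Adh3 was 54.3-fold or more lower in endosperm than in leaf before scaling, taking 3 reads over the group as the limit of a zero count. That figure leaves out the counting error of the leaf reads. Under CF it was 117-fold lower, also before scaling, with a counting interval of 20.8 to 4641. Adh3 was thus read almost entirely in leaf, where ADH2 was scarce. RRJ2 (Os05g0469800), a pyruvate decarboxylase for which the tables list PDC1 as a synonym, had 31 and 15 reads in GM endosperm and 22 and 22 in CF endosperm. In the leaf it had 7, 0 and 2 reads under GM and 5, 8 and 11 under CF. Most RRJ2 reads came from endosperm, although the leaf was sequenced in more libraries.

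**Figure D2:**
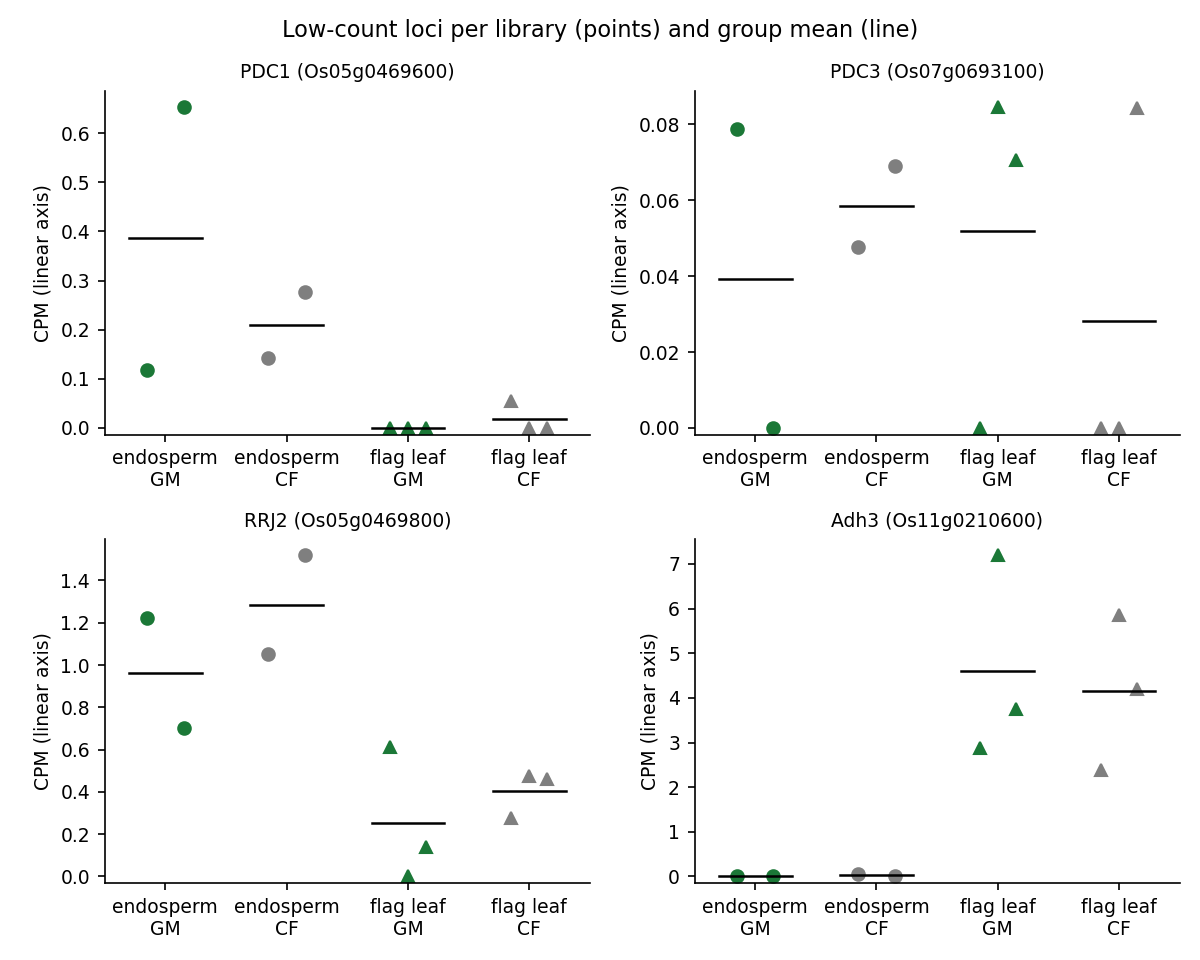
Level of PDC1, PDC3, RRJ2 and Adh3 in each library (points, CPM on a linear axis that differs between panels), with group means as lines. PDC1 reaches 0.654 CPM in a single GM endosperm library, PDC3 stays below 0.1 CPM, and Adh3 lies between 2.39 and 7.20 CPM in leaf and at or near 0 in endosperm.

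The difference between tissues was tested under each regime in an edgeR quasi-likelihood fit of all 10 libraries, with p-values adjusted over 25035 genes. The 3 listed loci that passed the filter were all called, 2 higher and 1 lower in endosperm, where 82.3% of all genes tested were called under GM and 83.1% under CF. That background makes the count itself uninformative, so the sizes are given instead. ADH2 passed the filter through its endosperm reads and had to differ, so no test of it is given here.

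ADH1 was higher in endosperm by 3.74 on the log2 scale under GM (13.4-fold, SE 0.10, edgeR adjusted p = 4.58e-14) and by 3.79 under CF (13.8-fold, SE 0.10, edgeR adjusted p = 3.02e-14). Of all genes tested, 86.0% lay below the ADH1 difference under GM. As a description, ADH2 was higher by 5.70 under GM (51.9-fold, SE 0.25) and by 5.97 under CF (62.7-fold, SE 0.22).

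The PDC2 locus was higher in endosperm by 2.43 under GM (5.40-fold, SE 0.12, edgeR adjusted p = 3.28e-11) and by 2.61 under CF (6.09-fold, SE 0.12, edgeR adjusted p = 1.24e-11). Os03g0293100 was lower in endosperm, with a log2 difference of -5.50 under GM (45.2-fold lower, SE 0.19, edgeR adjusted p = 2.05e-12) and -5.10 under CF (34.2-fold lower, SE 0.19, edgeR adjusted p = 3.61e-12). Of the 3 listed loci, the middle value is that of ADH1 itself, and the direction of ADH2 was not open. Their median is therefore not given as a shift of the group. Over all genes tested the median difference was 0.16 under GM and 0.15 under CF. ADH1 and ADH2 were thus higher in endosperm, and Os03g0293100 was lower.

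The share of ADH2 among the reads of ADH1 and ADH2 is given as a description, because it was chosen after the values were seen. ADH2 made up 8.62% and 11.3% of the reads of both genes in the GM endosperm libraries, against 11.2% and 12.2% in the CF endosperm libraries. In the leaf it made up 4.17%, 2.60% and 1.77% under GM, against 2.42%, 1.80% and 3.83% under CF. Every endosperm share exceeded every leaf share, while the GM and CF shares overlapped in both tissues. The log2 ratio of ADH2 to ADH1 reads was higher in endosperm by 2.16 on average over the 4 endosperm and 6 leaf libraries, with no test. The difference was 1.99 under GM and 2.33 under CF.

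The reads of the pyruvate decarboxylase loci were described in the same way. Os01g0160100, another locus described as similar to pyruvate decarboxylase isozyme 2, stood at 16.7 and 15.4 CPM in GM endosperm, against 20.1 and 15.5 CPM in CF endosperm, and averaged 13.2 ± 3.05 CPM in GM leaf and 12.2 ± 0.174 CPM in CF leaf (SD, n = 3 each). Its own difference between tissues was 0.29 on the log2 scale under GM (SE 0.16, edgeR adjusted p = 0.103) and 0.55 under CF (SE 0.16, edgeR adjusted p = 0.00466). It was called under GM without flag leaf GM replicate 2 (edgeR adjusted p = 0.00693) or with upper-quartile scaling (edgeR adjusted p = 0.0156), and lost its call under CF without endosperm CF replicate 1 (edgeR adjusted p = 0.120). The log2 ratio of PDC2 locus reads to Os01g0160100 reads was higher in endosperm by 2.10 on average, with no test. The difference was 2.14 under GM and 2.07 under CF. This ratio, and Os01g0160100 itself, were also chosen after the values were seen.

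**Figure D3:**
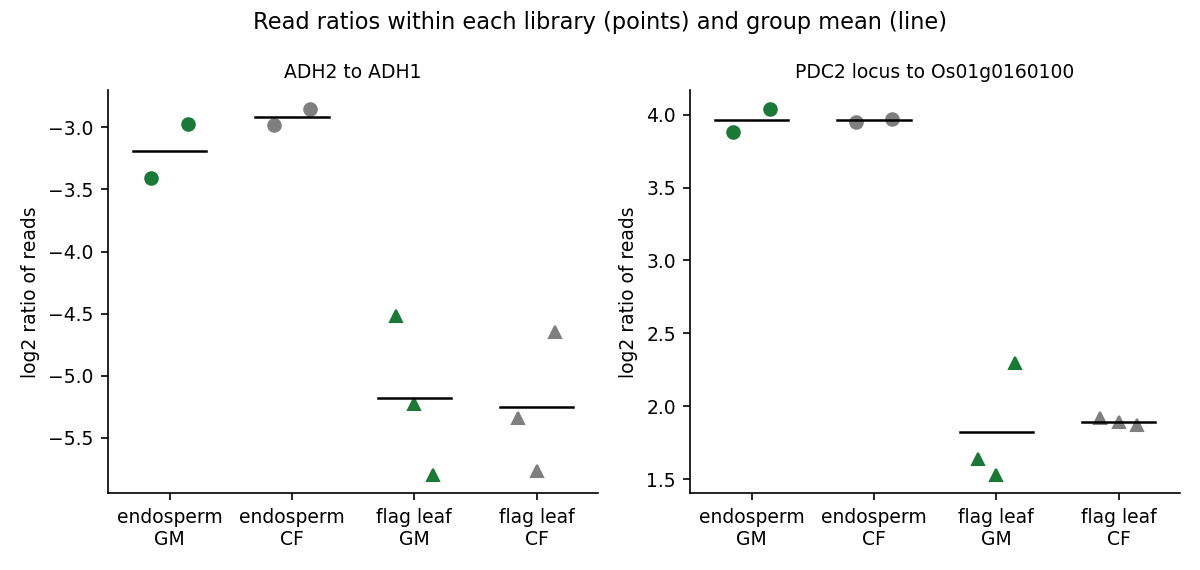
Log2 ratio of ADH2 to ADH1 reads (left) and of PDC2 locus to Os01g0160100 reads (right) in each library, with group means as lines. The endosperm libraries lie between -3.41 and -2.85 (left) and between 3.88 and 4.04 (right), and the leaf libraries between -5.80 and -4.52 and between 1.53 and 2.30.

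The comparison of regimes asks whether green manure changed the fermentation genes in either tissue. In endosperm no listed locus was called among the 3 of 5 that passed the filter, where edgeR called 1.26% of 23094 genes tested. DESeq2 and limma-voom called none of them either. Of the 3, 1 (ADH2) had an unadjusted p under 0.05 in edgeR, as had 3382 of the 23094 genes tested. The median difference of the 3 loci was -0.45 on the log2 scale, beside 0.00 over all genes tested. Os03g0293100, which has no enzyme annotation, is among the 3 at -0.46. The PDC2 locus, at -0.18, is not.

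ADH2 averaged 28.2 ± 6.32 CPM in GM endosperm and 37.7 ± 0.558 CPM in CF endosperm (SD, n = 2 each). The log2 difference was -0.45 (SE 0.14, 95% interval -0.77 to -0.12, edgeR adjusted p = 0.198). The call depends on the processing: with no filter on low counts the edgeR adjusted p was 0.00773, and without GM replicate 2 the difference was -0.70 with an edgeR adjusted p of 0.000402. Without GM replicate 1 it was -0.23 and not called, and without either CF library it was not called either, with edgeR adjusted p-values between 0.000402 and 0.613 over the libraries left out.

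ADH1 averaged 254 ± 3.54 CPM in GM endosperm and 285 ± 22.2 CPM in CF endosperm (SD, n = 2 each). The log2 difference was -0.19 (SE 0.12, 95% interval -0.44 to 0.06, edgeR adjusted p = 0.474). ADH1 and ADH2 did not overlap between regimes in endosperm, as was true of 46.3% of the genes tested, so the separation of 2 against 2 libraries is close to the background. The PDC2 locus averaged 249 ± 5.39 CPM in GM endosperm and 277 ± 47.5 CPM in CF endosperm (SD, n = 2 each), with a log2 difference of -0.18 (95% interval -0.46 to 0.10, edgeR adjusted p = 0.567). Os03g0293100 averaged 7.75 ± 1.57 CPM in GM endosperm and 10.4 ± 3.10 CPM in CF endosperm, with a log2 difference of -0.46 (95% interval -0.93 to 0.01, edgeR adjusted p = 0.352).

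Among the tissue markers, only those of aleurone and embryo were called between regimes in endosperm. All 5 aleurone and embryo markers were called lower in GM endosperm, with summed levels between 474 and 541 CPM under GM, against 974 to 1015 CPM under CF. Over all genes tested in endosperm, 1.23% were called lower. The 5 green tissue markers summed to between 1185 and 1260 CPM in GM endosperm, against 1394 to 2016 CPM in CF endosperm, with none called. The single nucellus and pericarp marker stood at 68.9 to 72.9 CPM under GM, against 67.8 to 78.8 CPM under CF. The summed levels of the 7 starchy endosperm markers overlapped, at 12981 to 17094 CPM under GM and 15264 to 16530 CPM under CF. The part of these differences in the lower ADH2 values under GM was not tested.

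In the flag leaf, 2 of the 5 listed loci passed the filter and neither was called, where edgeR called 2.94% of 20208 genes tested. DESeq2 and limma-voom called neither. In edgeR neither had an unadjusted p under 0.05, against 3358 of the 20208 genes tested. ADH1 averaged 18.9 ± 0.791 CPM in GM leaf and 20.6 ± 2.46 CPM in CF leaf (SD, n = 3 each), with a log2 difference of -0.11 (SE 0.11, 95% interval -0.35 to 0.12, edgeR adjusted p = 0.649). The PDC2 locus averaged 46.1 ± 6.74 CPM in GM leaf and 45.5 ± 1.5 CPM in CF leaf, with a log2 difference of 0.03 (95% interval -0.19 to 0.24, edgeR adjusted p = 0.923). Os03g0293100 averaged 352 ± 39.0 CPM in GM leaf and 362 ± 23.8 CPM in CF leaf, with a log2 difference of -0.03 (95% interval -0.24 to 0.17, edgeR adjusted p = 0.912). The leaf intervals of these 3 loci exclude changes of 1.5-fold in either direction, whereas the endosperm intervals of ADH2 and Os03g0293100 do not exclude a fall of that size.

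**Figure D4:**
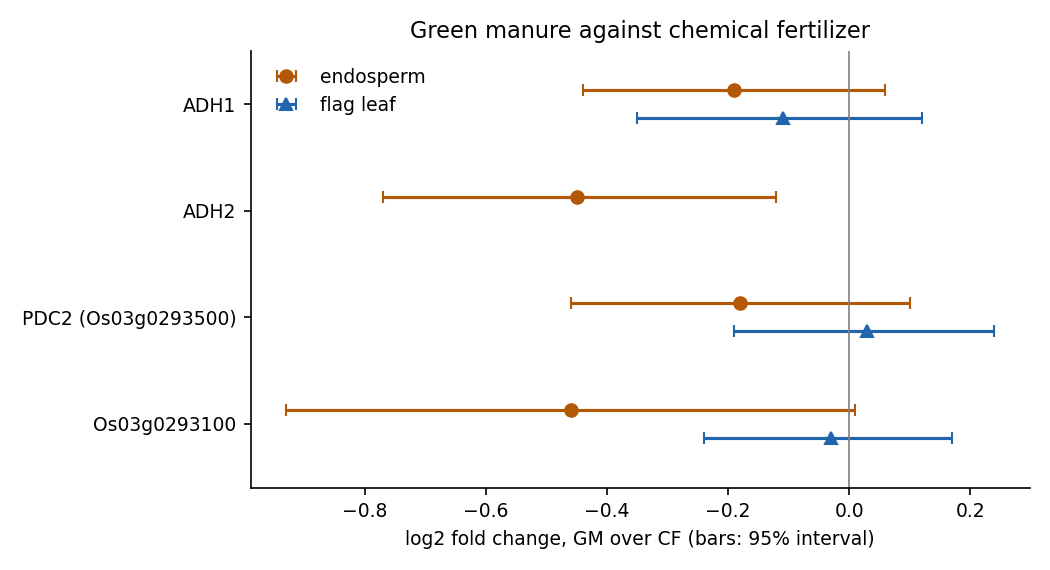
Log2 fold change of GM over CF in endosperm (circles) and flag leaf (triangles) with 95% intervals, on a linear axis. The endosperm values lie between -0.46 and -0.18 and the leaf values between -0.11 and 0.03, and ADH2 has no leaf value because it did not pass the filter there.

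The GM effect was not found to differ between tissues for any listed locus: 0 of the 3 that passed were called, where edgeR called 0.615% of 25035 genes. DESeq2 and limma-voom also called none of the 3. In edgeR none of the 3 had an unadjusted p under 0.05, against 2975 of the 25035 genes. The endosperm effect minus the leaf effect was -0.05 for ADH1 (95% interval -0.35 to 0.26, edgeR adjusted p = 0.974) and -0.27 for ADH2 (95% interval -1.30 to 0.75, edgeR adjusted p = 0.896). It was -0.40 for Os03g0293100 (95% interval -0.91 to 0.10, edgeR adjusted p = 0.535) and -0.17 for the PDC2 locus (95% interval -0.53 to 0.19, edgeR adjusted p = 0.737). For ADH2 the leaf term rests on 5 to 20 reads per library, and the interval is wide accordingly.

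The surrounding pathway was described with a list of 111 loci in 11 groups, taken from the annotation of the tables: the other alcohol, aldehyde and lactate dehydrogenases, the remaining pyruvate decarboxylases, alanine aminotransferases, hemoglobins, oxygen-sensing genes and enzymes that use pyruvate or acetate. In GM endosperm 0 were called higher and 1 lower than in CF endosperm of the 91 that passed, with a median log2 difference of -0.07. Among all genes tested there, 0.0303% were called higher and 1.23% lower. In GM leaf 1 was called higher and 1 lower than in CF leaf of the 76 that passed, with a median of 0.03. Among all genes tested there, 2.47% were called higher and 0.470% lower. None of the 96 that passed was called by edgeR for a difference of the GM effect between tissues, where 0.0599% of all genes were called higher and 0.555% lower. DESeq2 called 1 of them, Os01g0930900, similar to a short-chain alcohol dehydrogenase, and edgeR called the same locus with no filter or without flag leaf GM replicate 1.

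OsEnS-50 (Os03g0654700), a locus with a cysteine oxygenase domain, fell to 344 and 415 CPM in GM endosperm, against 644 and 589 CPM in CF endosperm. Its log2 difference was -0.72 (SE 0.14, edgeR adjusted p = 0.0292), and the call was lost on omission of either CF library or of GM replicate 1, with edgeR adjusted p-values between 0.000249 and 0.197 over the libraries left out. It had no read in any leaf library. FLO4 (Os05g0405000), the pyruvate orthophosphate dikinase known from floury-endosperm mutants, fell to 799, 781 and 840 CPM in GM leaf, against 987, 1149 and 1164 CPM in CF leaf. Its log2 difference was -0.44 (SE 0.09, edgeR adjusted p = 0.0300), and the call was lost on omission of CF replicate 2 or 3 or of GM replicate 3, with edgeR adjusted p-values between 0.0264 and 0.174 over the libraries left out, and also with both tissues in 1 fit (edgeR adjusted p = 0.190). Of the 4 starchy endosperm markers tested in leaf, 1 was called lower under GM, as were 0.470% of all genes tested. The 7 starchy endosperm markers summed to between 315 and 372 CPM in GM leaf, against 410 to 412 CPM in CF leaf. The green tissue markers summed to between 14096 and 18505 CPM in GM leaf, against 12019 to 14258 CPM in CF leaf, with none called. Their part in the lower FLO4 values was not tested. P5CS (Os05g0455500), an enzyme of proline synthesis that carries an aldehyde dehydrogenase domain, rose to 78.9, 82.1 and 76.2 CPM in GM leaf, against 64.7, 66.1 and 63.1 CPM in CF leaf. Its log2 difference was 0.30 (SE 0.07, edgeR adjusted p = 0.0435), and it lost its call in 9 of 15 alternatives, among them the omission of any CF library or of GM replicate 2 or 3. In each of these 3 genes the regimes did not overlap, which held for 46.3% of genes in endosperm and 22.3% in leaf.

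Between tissues, 52 of the 96 pathway loci that passed were called higher and 33 lower in endosperm under GM, and 54 higher and 29 lower under CF. Among all genes, 44.6% were called higher and 37.7% lower under GM, and 45.0% higher and 38.1% lower under CF. The median log2 difference of the pathway loci was 0.82 under GM and 0.88 under CF, beside 0.16 and 0.15 over all genes tested. In the fits of each tissue alone, 91 pathway loci passed in endosperm and 76 in leaf, against 23094 and 20208 of all genes. A locus that entered through the reads of 1 tissue could only be higher there, so these counts and medians are a description only. The groups differed among themselves. All 5 alanine aminotransferases, which convert pyruvate to alanine, were called higher in endosperm under both regimes. ALAAT2, ALAAT4 and ALAAT5 did not pass the filter in leaf and entered through their endosperm reads, so only the calls of ALAAT and ALAAT3 were open to either direction. The 34 alcohol dehydrogenase-like loci that passed were split, with 14 higher and 16 lower under GM and 14 higher and 13 lower under CF. In the fits of each tissue alone, 31 of them passed in endosperm and 27 in leaf, so the direction of some was not open. Of 23 aldehyde dehydrogenases, 13 were higher and 9 lower under GM, and 14 higher and 9 lower under CF. ALDH3B1 passed in endosperm and not in leaf, and ALDH3E1 in leaf and not in endosperm, so their direction was not open either. Of 10 loci of the pyruvate dehydrogenase complex and its kinases, 7 were higher and 2 lower under GM, and 6 higher and 2 lower under CF. The 11 loci with a cysteine oxygenase domain that passed, a domain found in the enzymes that mark oxygen-labile proteins, had 6 higher and 2 lower under GM, and 7 higher and 1 lower under CF. Only 6 loci with this domain passed the filter in leaf. OsEnS-50, Os03g0655100, Os08g0480400 and Os09g0265800 passed in endosperm and not in leaf, so their direction was not open. The hemoglobins, of which only 2 of 6 passed, and the group VII ethylene response factors, of which 3 of 4 passed, each had 1 higher and 1 lower under both regimes. Among these, the hemoglobin Hb2 and the factor ERF67 also passed in endosperm and not in leaf, so the same limit holds for them.

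Of the steps next to acetaldehyde, some were higher and some lower in endosperm. ALDH2A (Os02g0730000), a mitochondrial aldehyde dehydrogenase of the kind that oxidises acetaldehyde to acetate, was singled out after its values were seen. It averaged 125 ± 5.39 CPM in GM endosperm and 174 ± 50.2 CPM in CF endosperm (SD, n = 2 each), against 1.2 ± 0.507 CPM in GM leaf and 0.655 ± 0.306 CPM in CF leaf (SD, n = 3 each). As a description with no test, its log2 difference between tissues was 6.72 under GM (SE 0.26) and 8.05 under CF (SE 0.27). Its leaf libraries held between 7 and 21 reads. Os02g0525900, similar to acetyl-CoA synthetase, which activates acetate, was higher by 3.68 under GM (SE 0.13) and 3.87 under CF (SE 0.13). ALDH2B1 (Os06g0270900), another aldehyde dehydrogenase, went the other way, at -2.56 under GM (SE 0.11) and -2.44 under CF (SE 0.11). Acetaldehyde-related loci thus did not share a single direction.

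Other uses of pyruvate differed by enzyme. ALAAT (Os10g0390500), the alanine aminotransferase chosen for its CPM in both tissues, was higher in endosperm by 5.66 under GM (SE 0.26) and 5.72 under CF (SE 0.26). FLO4 was higher by 3.67 under GM (SE 0.18) and 3.35 under CF (SE 0.18). PDK (Os07g0637300), a kinase that inactivates the pyruvate dehydrogenase complex, was lower in endosperm at -4.66 under GM (SE 0.13) and -4.77 under CF (SE 0.14). PDHE1A (Os02g0739600), a subunit of that complex, was not called, at -0.08 under GM and 0.06 under CF (SE 0.09 in each). Os02g0105400, which has the symbol LDH but is described as a malate dehydrogenase, was lower at -2.0 under GM (SE 0.35) and -1.82 under CF (SE 0.38). Its size moved with the library left out, between -2.73 and -1.56 under GM and between -2.87 and -1.33 under CF. The value of -2.73 came without endosperm GM replicate 1, and that of -2.87 without endosperm CF replicate 1.

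The remaining pathway loci named by their level in a group varied in the same way. Among alcohol dehydrogenase-like loci, OsDH1 (Os08g0545200) was higher in endosperm by 1.33 under GM (SE 0.20) and 1.87 under CF (SE 0.20). Os11g0105750, which has a quinoprotein alcohol dehydrogenase-like domain, was lower at -7.19 under GM and -7.23 under CF (SE 0.18 in each). ALDH6B2 (Os07g0188800) was higher by 1.12 under GM and 1.28 under CF (SE 0.09 in each), and P5CS by 0.90 under both (SE 0.08 in each). The hemoglobin Os06g0591600 was lower at -1.33 under GM and -1.30 under CF (SE 0.09 in each), and Os04g0151900, with a cysteine oxygenase domain, at -0.35 under GM and -0.40 under CF (SE 0.10 in each). Every one of these genes was called under both regimes by edgeR at an adjusted p under 0.05, but Os04g0151900 lost its call under GM with upper-quartile scaling (edgeR adjusted p = 0.0811). SUB1C (Os09g0286600), an ethylene response factor of the submergence locus, was not called, at -0.05 under GM and 0.06 under CF (SE 0.12 in each).

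**Figure D5:**
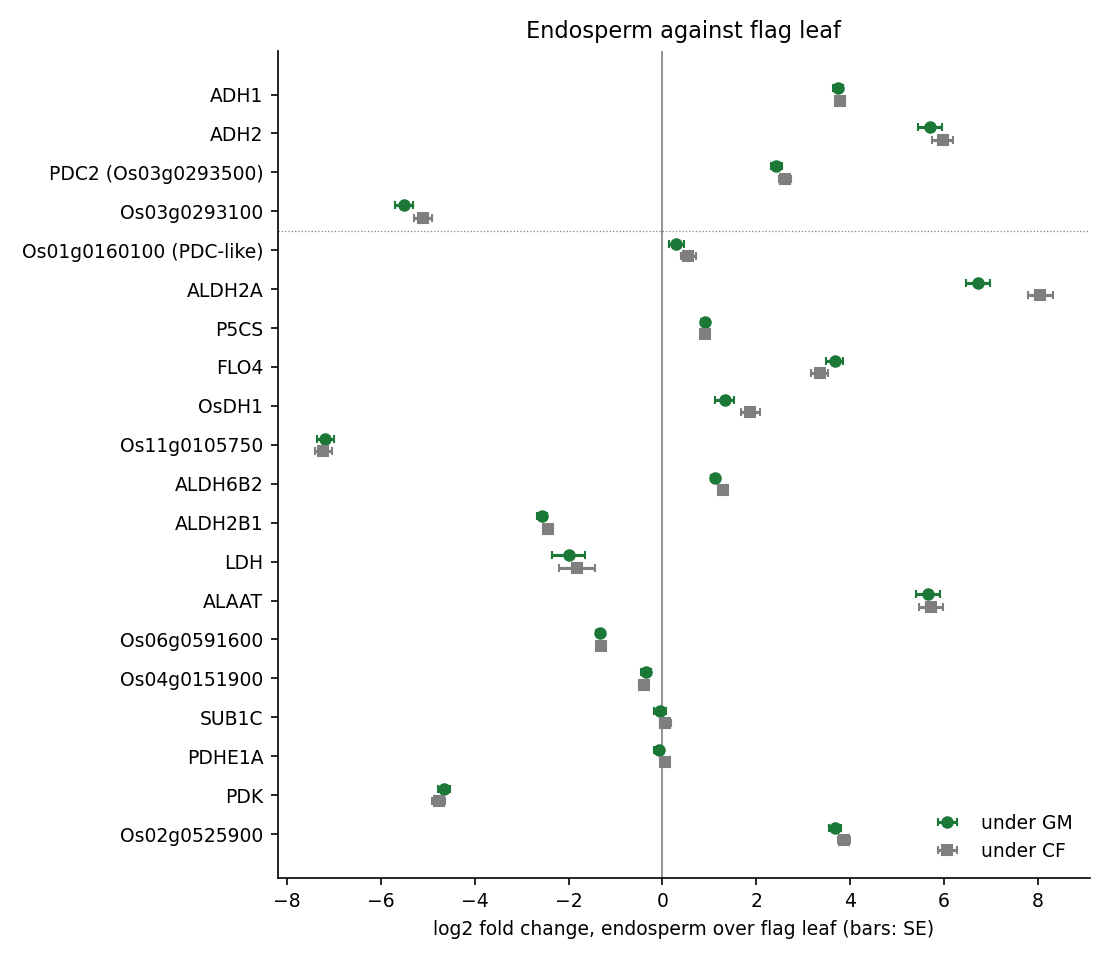
Log2 fold change of endosperm over flag leaf under GM (circles) and CF (squares) with SE bars, for the loci described first and the pathway loci named in the text. ADH1, ADH2, the PDC2 locus and ALDH2A lie to the right of 0, Os03g0293100 lies to the left at -5.50 and -5.10, and SUB1C and PDHE1A lie near 0.

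The genes most like each locus in pattern were found among 7205 genes with a symbol and a mean of at least 5 CPM, as the root mean square difference in log2 level over 10 libraries after centring each gene. The nearest to ADH1 were HAK10, a potassium transporter, at 0.09, SEC14-3, a phosphatidylinositol transfer protein, at 0.10, and YAB6, a YABBY-family protein, at 0.13. Those nearest to ADH2 were XTH23 at 0.22, PAP23 at 0.26 and SGL1 at 0.29. RING207, OsCPn60alpha2 and AH8 were nearest to the PDC2 locus, each at 0.10. AOX1C, an alternative oxidase of the mitochondrion, was nearest to Os03g0293100 at 0.07, followed by C3H33 at 0.11 and TRX29, a chloroplast thioredoxin, at 0.12. All 10 libraries share the contrast between tissues, so the measure is no independent record of each library. For PDC1 and PDC3 the nearest genes rest on too few reads to be described.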

How the data were processed

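The authors deposited, for each of the 2 tissues, a table of raw counts of uniquely mapped exon reads for 37727 loci, per the labels' file descriptions. Per the submitters' processing notes, reads were placed on IRGSP-1.0. Neither the aligner nor the counter is named in the sources used here. Unique counting leaves out reads shared by near-identical copies, so counts of the ADH1, ADH2 and Adh3 cluster and of PDC1 and RRJ2 carry that uncertainty. No coordinates or sequences are printed, since no annotation of this build was used.

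The tools were edgeR 4.0.16, DESeq2 1.42.0 and limma 3.58.1 under R 4.3.3, and scipy 1.17.1, pandas 2.3.3 and matplotlib 3.10.9 under Python 3.11.15. For GM against CF, each tissue had its own fit after filterByExpr (minimum count 10) and TMM scaling, with edgeR's quasi-likelihood test (robust) and Benjamini-Hochberg adjustment over all genes tested. Calls needed an adjusted p below 0.05. A joint model of the 10 libraries gave the differences between tissues and between the GM effects. SE is the log2 difference divided by the square root of F. The 95% intervals use edgeR's total degrees of freedom, which add a prior share estimated over all genes to the residual ones. Intervals on the residual degrees of freedom alone would be wider. The procedure was also run on simulated counts, with the same spread for every gene and differences in a chosen set of genes only. That run is no measure of how the tests behave on these libraries.

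The rule named all 5 listed loci, and from the pathway list the genes called under GM or highest in their group in a tissue. It also named the 3 genes most like each locus. Members, lists and markers were chosen with earlier results of these data known. Alternatives were RLE and upper-quartile scaling, scaling without the 20 most abundant genes, no filter or one of 5 CPM, DESeq2, limma-voom, the replicate block, both tissues in 1 fit, and each library left out.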

Additional observations from a re-analysis of the deposited data

How the results depend on the processing

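Of the alternatives run, ADH2 in endosperm changed its call under GM: the number of listed loci called was 1 with no filter, and 0 to 1 when each library was left out, the call appearing without endosperm GM replicate 2, while the difference was -0.23 without GM replicate 1. The directions of ADH1, ADH2, Os03g0293100 and the PDC2 locus between tissues held in every alternative, with ADH1 between 3.65 and 3.95 on the log2 scale. Upper-quartile scaling moved the median of all genes between tissues to 0.32 under each regime, against 0.16 under GM and 0.15 under CF with TMM. It turned SUB1C to 0.11 and PDHE1A to 0.07 under GM, called PDHE1A under CF at 0.22 (edgeR adjusted p = 0.0325) and called Os01g0160100 under GM at 0.45 (edgeR adjusted p = 0.0156). With each library left out, uncalled values near 0 changed sign. In leaf under GM, Os03g0293100 ran between -0.10 and 0.04 and the PDC2 locus between -0.06 and 0.14. For the endosperm effect minus the leaf effect, ADH1 ran between -0.12 and 0.08, ADH2 between -0.71 and 0.09, and the PDC2 locus between -0.34 and 0.01. Between tissues, SUB1C ran between -0.19 and 0.01 under GM and between -0.07 and 0.18 under CF, and PDHE1A between -0.01 and 0.11 under CF. The cause was not tested.

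The count of all genes called under GM in endosperm was 292, against 1370 with no filter, 184 with limma-voom, 168 with the replicate block and 135 (without CF replicate 1) to 944 (without GM replicate 2) with each library left out. In leaf it was 594, against 987 with no filter, 335 with both tissues in 1 fit and 40 (without CF replicate 2) to 933 (without GM replicate 1) with each library left out. Pathway loci called ran between 0 and 5 in endosperm, between 0 and 4 in leaf, and between 0 and 1 for the difference of the GM effects. Same-numbered GM and CF libraries did not deviate together (correlation 0.0479 in endosperm and -0.0243 to -0.00192 in leaf), so the numbers were not taken as pairs. With the replicate block OsEnS-50 was at -0.73 (edgeR adjusted p = 0.110), P5CS at 0.30 (edgeR adjusted p = 0.0502) and SUB1C between tissues under CF at -0.02. With 2 endosperm libraries per regime, leaving out 1 assumes that the lone library varies like the others.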
